A study of Homo sapiens with 12 samples.

Results

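The comparison set 2 human breast cancer lines against 2 human ovarian cancer lines by RNA sequencing. The breast side held MDA-MB-231, a line of triple-negative origin with spindle-shaped cells, and HCC1954, an ERBB2-amplified line that grows as an epithelial sheet. The ovarian side held OVCAR8 (spelled OVAR-8 in the sample labels), used as a model of high-grade serous carcinoma, and SKOV3 (spelled SKOV-3), which carries an ERBB2 amplification. Members were chosen by the tissue named in the sample labels, which gave 6 breast and 6 ovarian libraries, all 12 of the series.

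The study asked how SIVA1, a gene linked to apoptosis, and its D160N substitution act in cancer cells, and each line was therefore sequenced in 3 forms. One library of each line came from control cells, which the labels call parental and the study's supplement calls empty vector (EV). The other 2 came from cells stably transfected with wild-type SIVA (SIVA-WT) or with SIVA-D160N. The transfected cultures were pools of cells selected with hygromycin after Lipofectamine delivery of a linearized vector, and all lines were grown in RPMI-1640 with fetal bovine serum. The 3 libraries of a line share their cells of origin, so that a tissue had 2 independent members here and the tissue and the identity of the line cannot be told apart beyond that.

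Epithelia keep part of the transcription factor programme of the organ they come from after they become cancers. PAX8 is such a factor for the Mullerian epithelia, from which most ovarian carcinomas are thought to arise, and GATA3 is one for the luminal cells of the mammary gland. HOX genes, which encode homeodomain factors that give cells their position along the body axis, add a second layer of regional identity. Established lines can also lose these marks or take on mesenchymal traits in culture.

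Each library held between 35791455 and 45890398 counts, with a median of 41733885.5 for the breast and 38438193 for the ovarian libraries, so that 3 counts, the floor used for genes with no count, corresponded to between 0.0665 and 0.0852 CPM (counts scaled to a common library total). No 2 libraries held identical counts. Across genes, the log2 CPM of libraries of 1 line correlated at r = 0.984 to 0.995. The 2 breast lines were less alike (r = 0.803, 4702 of 19672 genes at least 4-fold apart) than the 2 ovarian lines (r = 0.834, 4097 genes). MDA-MB-231 resembled OVCAR8 (r = 0.850) and SKOV3 (r = 0.835) more closely than it resembled HCC1954. These values describe the same genes in all lines, and genes are not independent replicates. SIVA1 itself was at 0 counts in the HCC1954 EV library and ranged up to 80.6 CPM in the other breast libraries and from 52.4 to 175 CPM in the ovarian libraries. The SIVA-WT and SIVA-D160N libraries carry a SIVA construct, and its part in these counts was not tested.

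No gene passed the test of the tissue difference. The counts of the 3 libraries of a line were summed and the 4 line totals compared with the quasi-likelihood test of edgeR. Of 19672 genes tested, 0 (0%) were called higher in breast lines and 0 (0%) higher in ovarian lines at a false discovery rate (FDR) under 0.05 and a log2 fold change of at least 1.5. An unadjusted p under 0.05 was reached by 823 genes, 473 of them higher in ovarian and 350 higher in breast lines, where 983.6 would be expected by chance. The smallest FDR was 0.382, shared by FGF2, CDH2, TRHDE and the pseudogene ZNF542P, all higher in the ovarian lines. On the same totals DESeq2 called 367 genes higher in ovarian and 206 higher in breast lines. On the 12 libraries, with the line as a block, limma-voom called 16 and 2.

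The genes below are therefore described by how far the 12 libraries stood apart. A gene was called separated where its lowest library of one tissue exceeded its highest library of the other by a gap of at least 1 on the log2 CPM scale, that is, by at least 2-fold in every pairing of libraries. Among 19204 genes that passed a filter on low counts by line, 438 (2.28%) were separated with higher values in ovarian lines and 191 (0.995%) with higher values in breast lines. Without a minimum gap the groups did not overlap for 1398 genes (7.28%) higher in ovarian and 1168 genes (6.08%) higher in breast lines. A gene can pass the filter through 1 line alone, and the shares are given as a background for the lists below, not as a test. Leaving out a line raised these counts. They were 1321 higher in ovarian and 1751 higher in breast lines without MDA-MB-231, and 1160 and 835 without HCC1954. Without OVCAR8 they were 1471 and 798, and without SKOV3 1552 and 746. List counts with a line left out, given below, are to be read against these.

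The ovarian-high set held more genes that were silent on the other side. Of the 438 ovarian-high genes, 162 had at most 3 counts in each of the 6 breast libraries and 71 had none at all. In 70 of them this went with at least 1 CPM in every ovarian library. Of the 191 breast-high genes, 37 had at most 3 counts in each ovarian library, 10 had none, and 4 also reached at least 1 CPM in every breast library. The median gap was 2.20 for the ovarian-high and 1.76 for the breast-high genes on the log2 scale. The gap exceeded the spread between the 3 constructs in every line for 384 of the 438 and for 159 of the 191 genes.

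Levels within a tissue were often uneven. The 2 ovarian lines were within 2-fold of each other for 210 of the 438 genes and at least 8-fold apart for 56. The 2 breast lines were within 2-fold for 99 of the 191 genes and at least 8-fold apart for 27. By type, 336 of the 438 ovarian-high genes were protein-coding, 36 long non-coding and 24 pseudogenes in RefSeq, and 41 had no entry. Of the 191 breast-high genes the numbers were 152, 20, 4 and 15. Among all 19204 genes that passed the filter, 14395 were protein-coding.

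PAX8 followed the tissue label in all 12 libraries. Its level was 1.54 CPM at the lowest, 2.55 at the median and 3.44 at the highest of the 6 breast libraries. The 6 ovarian libraries ran from 60.6 over a median of 152 to 242 CPM. The groups did not overlap, and SKOV3 (235 CPM in the line total) was above OVCAR8 (68.2 CPM). The ratio of the tissues was 50.6-fold, taken here and below between the geometric means of the 2 line totals. The fitted log2 fold change was 5.9 (SE 0.88, FDR = 0.999 with edgeR). An exact two-sided permutation test over the 4 lines gave p = 0.333 (n = 2 lines each), the smallest p that 2 lines against 2 allow.

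PAX8-AS1, a long non-coding RNA transcribed from the opposite strand inside PAX8, showed the reverse order. It lay between 32.6 and 42.0 CPM in the breast libraries and between 0.196 and 2.0 CPM in the ovarian libraries, a 56.3-fold difference with no overlap. PAX8 spans chr2:113215997-113278921 and PAX8-AS1 chr2:113235527-113267023 in GRCh38. The library kit kept strand, but the strand setting of the counting is not given in the sources used here, so that reads in the shared stretch are an uncertain part of both values. The 250 bases before each RefSeq start (GRCh38.p14, 5′ to 3′, each CG dinucleotide in capitals) are shown because the pair changed places between the tissues and the starts lie 43394 bases apart.
PAX8, chr2:113278922-113279171, - strand: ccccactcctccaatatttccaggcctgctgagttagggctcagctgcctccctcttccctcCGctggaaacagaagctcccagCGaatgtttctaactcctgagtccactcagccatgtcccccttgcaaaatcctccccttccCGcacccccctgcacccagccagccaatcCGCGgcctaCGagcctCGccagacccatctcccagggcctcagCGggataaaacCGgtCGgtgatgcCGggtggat
PAX8-AS1, chr2:113235277-113235526, + strand: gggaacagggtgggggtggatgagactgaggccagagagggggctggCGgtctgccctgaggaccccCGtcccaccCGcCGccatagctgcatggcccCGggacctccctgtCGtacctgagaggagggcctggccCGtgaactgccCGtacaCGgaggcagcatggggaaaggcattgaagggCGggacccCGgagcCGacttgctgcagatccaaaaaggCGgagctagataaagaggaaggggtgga
The PAX8 window held 11 CG dinucleotides and the PAX8-AS1 window 13, against a median of 11 in the 27303 RefSeq windows of that length.

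GATA3 did not follow the label. HCC1954 had 46.1 CPM in its line total, OVCAR8 5.97 CPM, MDA-MB-231 2.19 CPM and SKOV3 0.00799 CPM. OVCAR8 thus stood above MDA-MB-231, the groups overlapped, and the exact two-sided permutation test over 2 lines each gave p = 0.667. The fitted log2 fold change was -3.01 (SE 2.78, FDR = 0.999, edgeR).

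**Figure D1:**
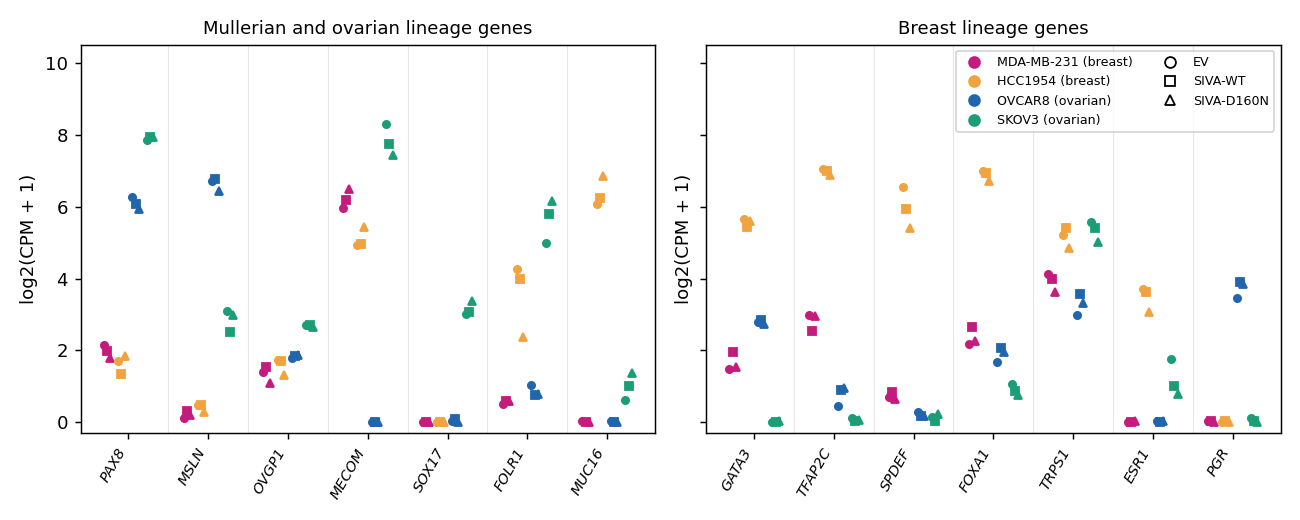
Levels of 7 Mullerian or ovarian and 7 breast lineage genes in the 12 libraries, as log2(CPM + 1); colours mark the line and symbols the construct. PAX8 and MSLN stand higher in both ovarian lines and TFAP2C and SPDEF in both breast lines, while GATA3, FOLR1, MUC16 and ESR1 are led by 1 line.

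Of 16 genes listed for Mullerian and ovarian identity, 13 passed the filter. Of these 2 (15.4%) were separated, both higher in ovarian lines, against 2.28% of all genes. The second was MSLN, which encodes the surface glycoprotein mesothelin. MSLN ran from 0.0887 to 0.405 CPM in the breast libraries and from 4.72 to 108 CPM in the ovarian libraries, with OVCAR8 (99.6 CPM) far above SKOV3 (6.22 CPM). Without OVCAR8 6 genes of the list were separated higher in ovarian lines (1471 over all genes), and without HCC1954 3 (1160). Without MDA-MB-231 or SKOV3 the ovarian-high count stayed at 2, and 1 gene was separated higher in breast lines (1751 and 746 over all genes). The oviduct glycoprotein gene OVGP1 did not overlap between the tissues, with a gap of only 0.1 on the log2 scale. Other members overlapped between the tissues. MUC16, the gene of the CA125 antigen, had 83.0 CPM in HCC1954 and 1.039 CPM in SKOV3, and was below 0.01 CPM in both other lines. The transcription factor gene SOX17 had 7.81 CPM in SKOV3 and 0.0355 CPM in OVCAR8. WT1, a factor common in serous carcinoma, was at 6.59 CPM in HCC1954 and 6.41 CPM in OVCAR8.

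Of 20 genes listed for breast identity, 13 passed the filter. Of these 2 (15.4%) were separated, both higher in breast lines, against 0.995% of all genes. Without MDA-MB-231 the count was 10 (1751 over all genes), without OVCAR8 4 (798), and without HCC1954 2 genes were also higher in ovarian lines (1160). TFAP2C, an AP-2 factor of the mammary epithelium, ran from 4.82 to 132 CPM in breast and from 0.0224 to 0.960 CPM in ovarian libraries. SPDEF, an ETS factor of secretory epithelia, ran from 0.585 to 92.2 CPM in breast and from 0.0224 to 0.217 CPM in ovarian libraries. In both genes HCC1954 was the higher breast line, with 125 CPM of TFAP2C against 6.25 in MDA-MB-231 and 65.7 CPM of SPDEF against 0.665. FOXA1, the pioneer factor of luminal cells, was at 118 CPM in HCC1954 but at 4.22 CPM in MDA-MB-231, next to 2.79 CPM in OVCAR8, and its gap was 0.15. The estrogen receptor gene ESR1 was highest in 1 breast line (10.4 CPM in HCC1954). The progesterone receptor gene PGR was highest in OVCAR8 (12.6 CPM).

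The gene with the widest gap was the pseudogene ZNF542P on chromosome 19. It ran from 192 to 456 CPM in the ovarian libraries and reached 0.0690 CPM (3 counts) at most in the breast libraries. Among protein-coding genes the widest gap belonged to FGF2, the gene of basic fibroblast growth factor. FGF2 ran from 119 over a median of 152 to 183 CPM in the ovarian libraries and reached 0.0920 CPM (4 counts) at most in the breast libraries. The 2 ovarian lines were close, with 162 CPM in OVCAR8 and 146 CPM in SKOV3. For genes at 0 or a few counts on one side, the gap and the fitted fold change depend on the count added before taking logs and are no bound.

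CDH2, the gene of N-cadherin, followed in the ovarian-high set. It ran from 0.0715 to 0.369 CPM in the breast libraries and from 111 to 197 CPM in the ovarian libraries, a 782-fold ratio of line totals (log2 fold change 9.62, SE 0.63, FDR = 0.382, edgeR). ANPEP, which encodes the membrane aminopeptidase CD13, ran from 0.328 to 1.48 CPM in breast and from 376 to 641 CPM in ovarian libraries, a 768-fold ratio. CALB1, a calcium-binding protein gene, ran from 88.5 to 289 CPM in the ovarian libraries and had at most 4 counts in a breast library. TRHDE, which encodes a peptidase that degrades thyrotropin-releasing hormone, ran from 14.2 to 67.1 CPM in ovarian libraries with at most 1 count in a breast library.

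Several genes of this set had no count in any breast library. TRIM58, which encodes a ubiquitin ligase of late red-cell maturation, ran from 24.1 to 81.7 CPM in the ovarian libraries and was at least 3753-fold higher there, set against a floor of 3 counts over the 6 breast libraries. PDPN, the gene of the mucin-type glycoprotein podoplanin, was at least 1759-fold higher, with 42.7 CPM in OVCAR8 and 10.7 CPM in SKOV3. FSD1, a gene of a microtubule-associated protein, was at least 1978-fold higher. The other members of the 15 widest gaps were BEND4, TMEM246, SMO and 4 zinc finger genes (ZNF667, ZNF677, ZNF711 and ZNF280B), with between 9.27 and 48.6 CPM in every ovarian library and at most 3 counts in a breast library.

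The breast-high set opened with GLUL, the gene of glutamine synthetase. GLUL ran from 51.9 over a median of 104 to 320 CPM in the breast libraries. It had 0 counts in the 3 OVCAR8 libraries and at most 0.765 CPM in SKOV3. CT83, a cancer-testis antigen gene on the X chromosome, ran from 4.75 to 15.5 CPM in breast libraries with at most 1 count in an ovarian library. ARHGDIB, which encodes a GDP-dissociation inhibitor of small GTPases known best from blood cells, ran from 97.1 to 142 CPM in breast and from 0.0895 to 1.96 CPM in ovarian libraries, a 225-fold ratio. Its 2 breast lines were close, with 115 CPM in MDA-MB-231 and 127 CPM in HCC1954.

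The list went on with genes of several kinds. GJB2, which encodes the gap junction protein connexin 26, ran from 10.6 to 45.3 CPM in breast libraries and reached 0.185 CPM in ovarian libraries. TNS4, a tensin gene, was at 169 CPM in HCC1954 and 10.4 CPM in MDA-MB-231, against at most 0.104 CPM in an ovarian library. The acyl-CoA synthetase gene ACSL5 was 116-fold higher in breast lines, with 86.0 CPM in MDA-MB-231 and 33.4 CPM in HCC1954. GALNT6, which encodes an enzyme that starts mucin-type O-glycans, was 263-fold higher, and the sphingosine-1-phosphate transporter gene SPNS2 100-fold. The galactosylceramidase gene GALC, the histamine N-methyltransferase gene HNMT, the glutamyltransferase gene GGT5 and the oxidase gene NOX5 completed this group with RPS6KA2, EPS8L1 and TMEM156, each at 1.19 CPM or more in every breast library and at most 0.522 CPM in an ovarian library.

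**Figure D2:**
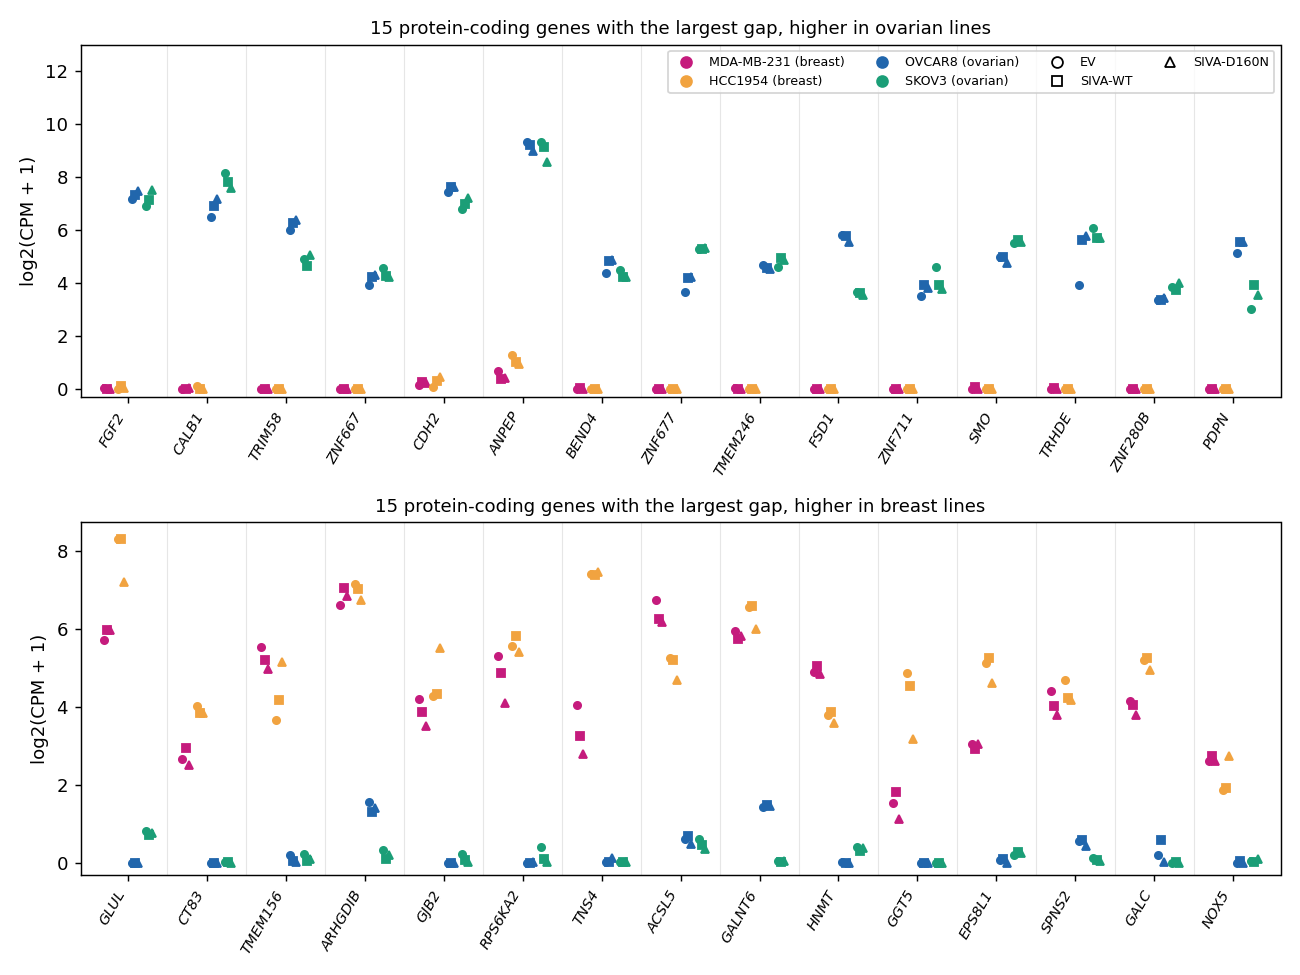
The 15 protein-coding genes with the widest gap in each direction, as log2(CPM + 1) in the 12 libraries; colours mark the line and symbols the construct. The 3 constructs of a line lie close together for most genes, and the lower tissue sits at or near 0.

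HOX genes were separated in 2 of the 4 clusters. Of 39 HOX genes listed, 34 passed the filter, and 7 of these (20.6%) were separated, all higher in ovarian lines, against 2.28% of all genes. The HOXD cluster contributed 4 of its 7 genes and the HOXB cluster 3 of its 9. HOXD8 had 0 counts in all 6 breast libraries and from 4.59 to 12.3 CPM in the ovarian libraries, at least 607-fold higher. HOXD9 likewise had 0 counts in breast and from 2.53 to 9.40 CPM in ovarian libraries, at least 418-fold higher. HOXD13 ran from 4.12 to 13.4 CPM in ovarian libraries with a single count in 1 breast library, and here OVCAR8 (13.4 CPM) exceeded SKOV3 (4.14 CPM). HOXD3 was separated at low levels, with at most 0.449 CPM in any library.

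The HOXB genes were uneven between the ovarian lines. HOXB4 was at 14.2 CPM in OVCAR8 and 44.4 CPM in SKOV3, against 0.841 CPM in MDA-MB-231 and 0.231 CPM in HCC1954. HOXB6 was at 6.94 CPM in OVCAR8 and 133 CPM in SKOV3 and had 0 counts in all HCC1954 libraries. HOXB5 came near the limit, with a gap of 1.03. The neighbouring HOXB9 overlapped, since MDA-MB-231 (46.0 CPM) was level with SKOV3 (48.8 CPM).

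The HOXA and HOXC clusters had no separated gene, and 1 breast line set this apart from the other. In MDA-MB-231 no HOXA gene of the list exceeded the 0.481 CPM of HOXA13, whereas HCC1954 had 23.3 CPM of HOXA3 and 12.2 CPM of HOXA9, above both ovarian lines. Without HCC1954 7 HOXA genes were separated higher in ovarian lines (1160 over all genes), and without MDA-MB-231 3 were higher in breast lines (1751). Of the HOXC genes, HOXC13 was at 40.4 CPM and HOXC10 at 36.5 CPM in HCC1954, and at 3.10 and 17.2 CPM in OVCAR8. SKOV3 had 0.032 CPM of HOXC10 and no count of HOXC13.

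**Figure D3:**
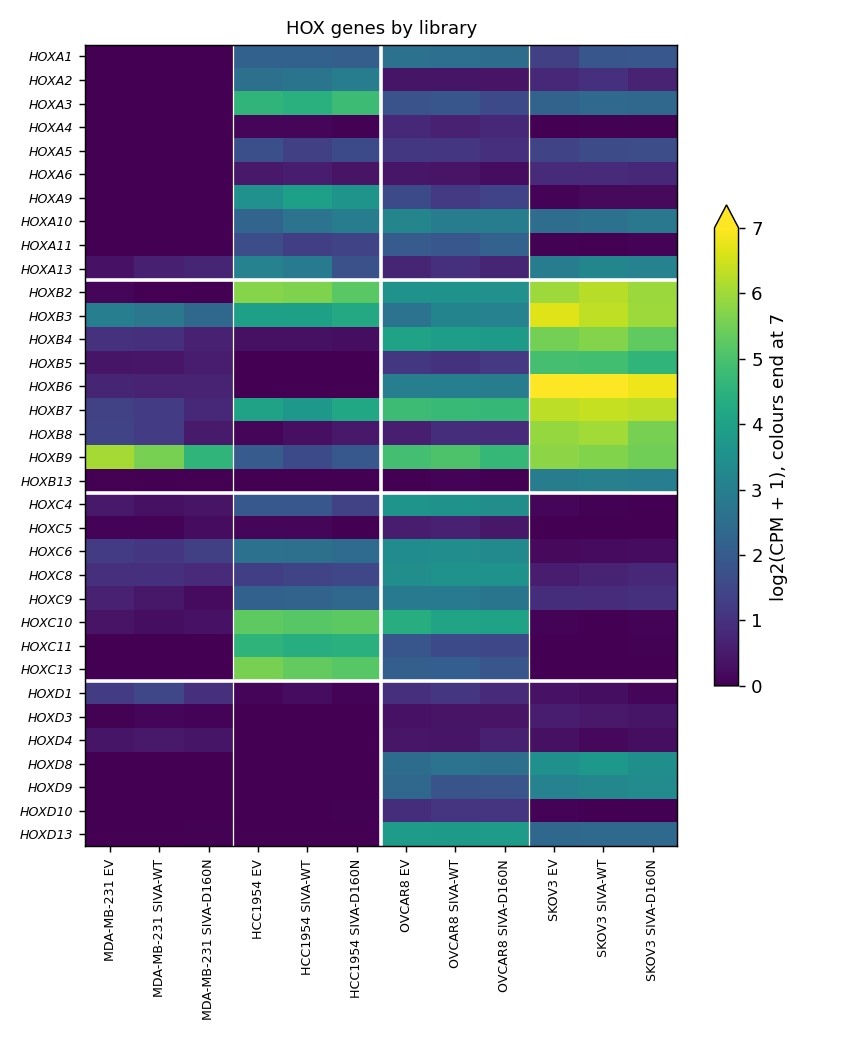
HOX genes that passed the filter, in rows by cluster, in the 12 libraries, in columns by line; the colour is log2(CPM + 1) and the thick vertical line parts breast (left) from ovarian (right). HOXD8, HOXD9 and HOXD13 are dark in all breast libraries, while most HOXA genes are dark in MDA-MB-231 and not in HCC1954.

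Of 50 other patterning factors, 46 passed the filter. Of these 4 were separated higher in ovarian lines (8.70%, against 2.28% of all genes) and 1 higher in breast lines (2.17%, against 0.995%). Without MDA-MB-231 the counts were 8 and 10, without HCC1954 10 and 2, without OVCAR8 10 and 2, and without SKOV3 13 and 4. MSX1, a homeobox gene of the reproductive tract and limb, ran from 3.79 to 16.2 CPM in ovarian libraries with at most 2 counts in a breast library. HAND2, a mesenchymal helix-loop-helix factor of the uterus and heart, had 0 counts in breast libraries and was at 7.61 CPM in OVCAR8 and 0.663 CPM in SKOV3, at least 184-fold higher. FOXD1 was at 215 CPM in OVCAR8, 21.1 CPM in SKOV3, 3.55 CPM in HCC1954 and 0.00801 CPM in MDA-MB-231. TBX15 completed the ovarian side with a gap of 2.22. SOX9, a factor of ductal and progenitor cells in many epithelia, was the breast-high member. It ran from 78.9 to 108 CPM in the breast libraries and from 6.57 to 26.3 CPM in the ovarian libraries, a 7.5-fold ratio.

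The epithelial and mesenchymal lists were not simply opposed. All 20 listed epithelial genes passed the filter and 2 (10.0%) were separated, both claudins higher in breast lines, against 0.995% of all genes. Without MDA-MB-231, 19 were separated higher in breast lines (1751 over all genes), and without OVCAR8 or SKOV3 6 and 3 (798 and 746). CLDN4 was at 519 CPM in HCC1954 and 63.0 CPM in MDA-MB-231, and at most 4.15 CPM in an ovarian library. CLDN7 was at 154 CPM in HCC1954 and 8.62 CPM in MDA-MB-231, and at most 0.337 CPM in an ovarian library. The other 18 epithelial genes overlapped, and most were high in HCC1954 alone. CDH1, the gene of E-cadherin, was at 769 CPM in HCC1954 and at 0.032 CPM in MDA-MB-231, 0.311 CPM in OVCAR8 and 0.264 CPM in SKOV3. The epithelial regulator gene GRHL2 was at 205 CPM in HCC1954, at 0.00888 CPM in OVCAR8 and without a count in both other lines. The list's median difference of -4.02 (log2, ovarian minus breast, against 0.01 over all genes) thus came with 18 overlapping genes.

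All 20 mesenchymal genes passed the filter and 5 (25.0%) were separated, all higher in ovarian lines, against 2.28% of all genes. With any gap above 0, 8 did not overlap with higher values in ovarian lines (7.28% of all genes). On the breast side 1 did not overlap (6.08% of all genes). Without MDA-MB-231 the ovarian-high count was 10 (1321 over all genes), without HCC1954 7 (1160), without OVCAR8 7 (1471) and without SKOV3 7 (1552). Leaving out HCC1954 or SKOV3 also gave 1 gene separated higher in breast lines (835 and 746 over all genes). Besides CDH2 they were SPARC, TWIST1, TWIST2 and PRRX1. SPARC, a matricellular glycoprotein gene, ran from 88.9 to 460 CPM in ovarian libraries and from 0.682 to 6.61 CPM in breast libraries, a 68.6-fold ratio. TWIST1 was at 8.10 CPM in OVCAR8 and 6.41 CPM in SKOV3, at 1.16 CPM in HCC1954 and without a count in MDA-MB-231. TWIST2 had the same order of tissues, with 7.19 and 11.8 CPM against 1.58 CPM and no count. MDA-MB-231 was low for these genes, while VIM, the gene of vimentin, was at 3519 CPM there, close to 3620 CPM in SKOV3 and 3113 CPM in OVCAR8, and far from 174 CPM in HCC1954. ZEB1, a repressor of epithelial genes, had 102 CPM in MDA-MB-231, 27.5 CPM in OVCAR8, 81.7 CPM in SKOV3 and 0.818 CPM in HCC1954. FN1, the gene of fibronectin, was within 204 to 237 CPM in all 4 lines. The fitted log2 fold change (ovarian minus breast, edgeR) was 0.87 for VIM and 0.15 for AXL, but -0.24 for MSN and -2.02 for TGFBI.

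Further adhesion families were looked at after their values were seen, over whole families. Of 23 cadherins, 15 passed the filter. CDH2 and CDH13 were separated higher in ovarian lines (13.3%, against 2.28% of all genes) and CDH5 higher in breast lines (6.67%, against 0.995%). CDH13, which encodes a cadherin without a cytoplasmic tail, was at 12.1 CPM in OVCAR8 and 113 CPM in SKOV3, with at most 2 counts in a breast library. CDH6 and CDH16 were high in SKOV3 alone (186 and 116 CPM). Of 13 claudins that passed the filter, the separated ones were CLDN4 and CLDN7 (15.4% higher in breast lines, against 0.995% of all genes).

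The clustered protocadherins, neuronal-type adhesion genes in 3 neighbouring arrays on chromosome 5, were on the ovarian side. Of 54 named genes 50 passed the filter. Of these 11 (22%) were separated higher in ovarian lines, against 2.28% of all genes, and 0 higher in breast lines, against 0.995%. Without OVCAR8 the ovarian-high count was 43 (1471 over all genes) and without HCC1954 24 (1160), and without SKOV3 1 gene was breast-high (746). The alpha array gave 8 of its 13 genes, the beta array 2 of 15 and the gamma array 1 of 22. PCDHB5, a gene of 1 exon, ran from 16.6 to 19.7 CPM in the ovarian libraries and reached 0.119 CPM in the breast libraries. PCDHA12 had 0 counts in breast libraries and from 1.36 to 4.24 CPM in ovarian libraries, at least 204-fold higher. The alpha genes share their last exons, so that the counting could split or drop reads between them and the single alpha values are uncertain.

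Zinc finger protein genes made up a further group. These genes encode DNA-binding proteins, many of them with a KRAB domain that recruits repressors, and a large share of them lie in tandem arrays on chromosome 19. The family was noticed in the separated genes and then taken whole, by names of the ZNF, ZSCAN, ZKSCAN, ZFP and ZIK series. Of 561 such genes 527 passed the filter, and 36 (6.83%) were separated higher in ovarian lines, against 2.28% of all genes, and 0 higher in breast lines, against 0.995%. With any gap above 0, 69 of the 527 did not overlap with higher values in ovarian and 25 with higher values in breast lines. Over all genes the shares without overlap were 7.28% and 6.08%. The EV libraries alone gave 42 and 2, against 799 and 471 over all genes. Leaving out a line ended the count of 0 on the breast side, with 77 and 11 without MDA-MB-231, 51 and 9 without HCC1954, 70 and 11 without OVCAR8, and 54 and 8 without SKOV3. Over all genes that passed the filter, the same omissions gave 1160 to 1552 and 746 to 1751. In 14 of the 36 genes, no breast library exceeded 3 counts.

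The separated zinc finger genes were spread over chromosome 19 and other chromosomes. On chromosome 19, 24 of 247 genes (9.72%) were separated, and on other chromosomes 12 of 280 (4.29%), against 2.28% of all genes. Other genes of chromosome 19 gave 25 of 962 (2.6%) higher in ovarian and 10 higher in breast lines. From 52 Mb to the end of chromosome 19 the share was 13 of 97 (13.4%), whereas other genes of that stretch gave 4 of 92 higher in ovarian and 1 higher in breast lines. A run of neighbours near the end of the long arm held ZNF542P, ZNF582, ZNF583, ZNF667, ZNF667-AS1 and ZNF471 between chr19:56368099 and chr19:56530212. ZNF667 had 0 counts in breast libraries and from 14.2 to 22.8 CPM in ovarian libraries, at least 1497-fold higher. ZNF667-AS1, a non-coding RNA that overlaps it on the other strand, had 0 counts in breast libraries and from 15.7 to 27.5 CPM in ovarian libraries. ZNF471 had 0 counts in breast libraries, 6.88 CPM in OVCAR8 and 22.9 CPM in SKOV3. ZNF583 departed from this pattern, with 2.83 CPM in MDA-MB-231, 0.00827 CPM in HCC1954 and 8.11 and 7.24 CPM in the ovarian lines.

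The 250 bases before the RefSeq start of 4 of these genes (GRCh38.p14, 5′ to 3′, CG in capitals) are shown because the genes had at most 4 counts in any breast library and at least 11.7 CPM in every ovarian library.
ZNF667, chr19:56477346-56477595, - strand: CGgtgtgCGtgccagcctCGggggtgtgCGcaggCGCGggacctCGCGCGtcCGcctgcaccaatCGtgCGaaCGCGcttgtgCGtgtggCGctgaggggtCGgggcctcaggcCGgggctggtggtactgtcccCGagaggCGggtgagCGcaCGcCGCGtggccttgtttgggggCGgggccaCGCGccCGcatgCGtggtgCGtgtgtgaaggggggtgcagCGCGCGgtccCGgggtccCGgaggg
ZNF667-AS1, chr19:56477624-56477873, + strand: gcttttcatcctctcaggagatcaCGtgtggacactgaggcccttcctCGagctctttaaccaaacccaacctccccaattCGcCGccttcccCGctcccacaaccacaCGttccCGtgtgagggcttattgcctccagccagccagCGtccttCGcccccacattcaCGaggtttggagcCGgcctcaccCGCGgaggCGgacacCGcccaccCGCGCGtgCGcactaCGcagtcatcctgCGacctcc
ZNF677, chr19:53254824-53255073, - strand: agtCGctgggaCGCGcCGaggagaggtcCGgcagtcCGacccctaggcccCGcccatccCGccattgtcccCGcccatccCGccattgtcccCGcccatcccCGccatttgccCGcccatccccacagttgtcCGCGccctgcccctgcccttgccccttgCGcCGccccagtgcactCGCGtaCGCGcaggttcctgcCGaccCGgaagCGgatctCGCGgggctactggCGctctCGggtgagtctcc
ZIK1, chr19:57583895-57584144, + strand: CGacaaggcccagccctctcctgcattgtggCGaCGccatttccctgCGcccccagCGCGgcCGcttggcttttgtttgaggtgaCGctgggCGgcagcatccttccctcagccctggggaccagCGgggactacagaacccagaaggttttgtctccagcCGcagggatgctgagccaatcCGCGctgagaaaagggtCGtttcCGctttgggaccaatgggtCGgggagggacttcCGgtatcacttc
For each gene 1 RefSeq start was used, which need not be its outermost one. The starts used for ZNF667 and ZNF667-AS1 lie 529 bases apart and face away from each other. ZNF667 spans chr19:56439329-56478093, so that its window lies inside the gene and the gene reaches past both starts. The window of ZNF677 (chr19:53235381-53254873) lies partly inside that gene. The 4 windows held 35, 21, 28 and 17 CG dinucleotides in the order shown. Windows with at least 10 CG dinucleotides (letters CG, which read the same on both strands) made up 27 of the 31 separated zinc finger genes with an entry (87.1%), 363 of 413 other zinc finger genes that passed the filter (87.9%) and 51.9% of all 27303 windows. The separated genes were thus not set apart from their family by this count. DNA methylation was not measured here.

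**Figure D4:**
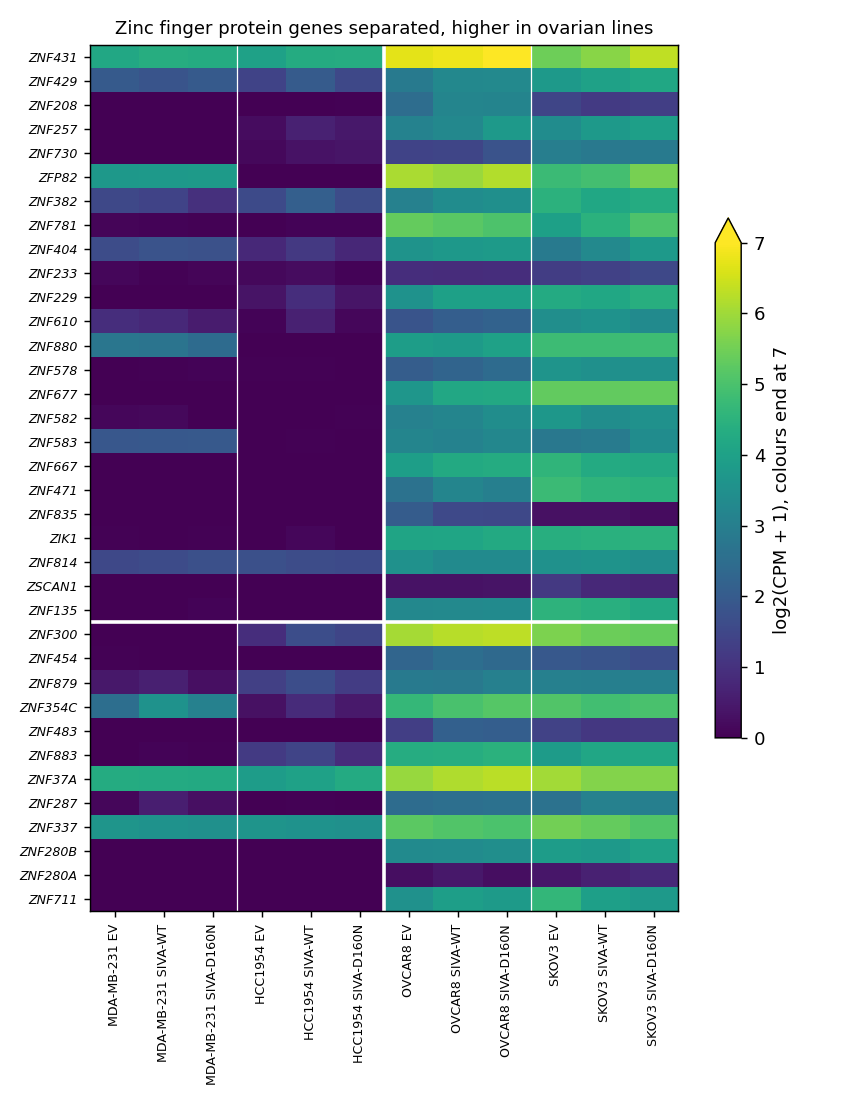
The 36 separated zinc finger protein genes in the 12 libraries, in order along chromosome 19 above the horizontal line and by chromosome below it; the colour is log2(CPM + 1). Many rows are at 0 in both breast lines, and others, such as ZFP82, ZNF880 and ZNF300, are at 0 in 1 breast line and low in the other.

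Some separated zinc finger genes differed by level only. ZNF337 ran from 10.3 to 11.5 CPM in breast and from 31.3 to 44.4 CPM in ovarian libraries, a 3.31-fold ratio. ZNF814 ran from 1.84 to 2.27 CPM in breast and from 9.19 to 11.01 CPM in ovarian libraries, a 4.85-fold ratio. For these 2 genes both lines of each tissue were close. ZNF300 was at 74.1 CPM in OVCAR8 and 42.5 CPM in SKOV3, against 1.59 CPM in HCC1954 and no count in MDA-MB-231. Members of these arrays are close in sequence, and how reads that match several of them were counted is not given in the sources used here.

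Growth factor pathways were also taken whole after values were seen. Of 27 FGF ligands and receptors 15 passed the filter. FGF2, FGF18, FGFR1 and FGFR3 were separated higher in ovarian lines (26.7%, against 2.28% of all genes). FGF13 was separated higher in breast lines (6.67%, against 0.995%). FGFR1, a receptor tyrosine kinase for FGF2, ran from 155 to 351 CPM in ovarian and from 7.24 to 63.5 CPM in breast libraries, a 9.51-fold ratio. FGFR3 ran from 11.8 to 18.3 CPM in ovarian and from 0.865 to 5.43 CPM in breast libraries. FGF5 was split the other way, between lines of both tissues, with 200 CPM in MDA-MB-231 and 293 CPM in OVCAR8 against 0.207 CPM in HCC1954 and 3.94 CPM in SKOV3.

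In the Hedgehog pathway, SMO and GLI2 were the separated genes among 13 that passed the filter (15.4%, against 2.28% of all genes). SMO encodes the seven-pass transducer that is held in check by the receptor PTCH1. It ran from 26.0 to 48.6 CPM in ovarian libraries and had at most 3 counts in a breast library. GLI2, a transcription factor at the end of the pathway, ran from 18.6 to 38.3 CPM in ovarian and from 0.143 to 4.95 CPM in breast libraries. PTCH1, the receptor and a known target of the pathway, was between 5.74 and 14.0 CPM in all 4 lines and overlapped. Of 40 listed TGF-beta, BMP and activin genes 35 passed the filter, and only BMP4 was separated (2.86%, against 0.995% of all genes). BMP4 was higher in breast lines, with 9.75 and 8.70 CPM against 1.77 and 1.24 CPM. GREM1, which encodes a BMP antagonist, was at 146 CPM in OVCAR8 and at most 0.0165 CPM in the line total of any other line.

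Toll-like receptors and MHC class II genes, both best known from immune cells, were looked at after their values were seen. Of 10 Toll-like receptors 6 passed the filter and 3 were separated, all higher in breast lines (50%, against 0.995% of all genes). Leaving out MDA-MB-231 gave 6 (1751 over all genes). TLR1 was at 2.81 and 3.0 CPM in the breast and 0.0621 and 0.168 CPM in the ovarian lines, and its neighbour TLR6 at 19.6 and 11.1 CPM against 0.577 and 1.77 CPM. TLR1 and TLR6 are close copies of each other, and reads could be shared between them. TLR4 was at 2.12 and 2.11 CPM in breast lines, at 0.160 CPM in SKOV3 and without a count in OVCAR8. Of 10 genes of MHC class II that passed the filter, the regulator CIITA and the invariant chain gene CD74 were separated. Both were higher in breast lines (20%, against 0.995% of all genes). CIITA was at 9.13 CPM in HCC1954 and 1.23 CPM in MDA-MB-231 and had at most 3 counts in an ovarian library. HLA-DRB1 did not follow, with 53.3 CPM in HCC1954 and 22.9 CPM in OVCAR8. CD274, the gene of the ligand PD-L1, was picked singly after its values were seen and belongs to no list. CD274 ran from 21.5 to 116 CPM in breast and from 1.08 to 3.35 CPM in ovarian libraries, a 20.4-fold ratio.

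Markers of cells that a line should not hold ranged from no count in any library of a tissue to 52.5 CPM in a line total. Of 18 such genes 8 passed the filter. The endothelial genes VWF and CDH5 were separated higher in breast lines (25%, against 0.995% of all genes). CDH5 was at 17.96 CPM in HCC1954 and 0.497 CPM in MDA-MB-231, and VWF at 2.62 and 2.76 CPM. The summed level of all 18 genes ran from 11.8 to 117 CPM in the breast libraries and from 5.44 to 14.1 CPM in the ovarian libraries, and 8 of the 18 genes had at most 3 counts in every breast library, as did 8 in every ovarian library. Genes at 0 in every breast library included HBB, INS, NEFL and SOX10, and genes at 0 in every ovarian library included PTPRC, CD3E, HBB, NEFL, SOX10 and MLANA. PECAM1, another endothelial gene, was at 52.5 CPM in HCC1954. PTPRC, the gene of the leukocyte antigen CD45, was at 0.438 CPM in HCC1954 and without a count in MDA-MB-231. The part of other cells in the immune-type genes was not tested.

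Most surface antigens used as targets of antibody drugs overlapped between the tissues, which does not mean that their levels were alike. Of 26 that passed the filter, CD70 was the 1 separated higher in ovarian lines (3.85%, against 2.28% of all genes). On the breast side 1 was separated as well (3.85%, against 0.995%). Without HCC1954 6 were higher in ovarian lines (1160 over all genes), and without MDA-MB-231 9 were higher in breast lines (1751). CD70, a ligand of the TNF family, ran from 24.4 to 243 CPM in ovarian and from 0.0505 to 0.453 CPM in breast libraries, a 458-fold ratio. ERBB2 split each tissue, with 7578 CPM in HCC1954 and 8767 CPM in SKOV3 against 34.9 CPM in MDA-MB-231 and 74.1 CPM in OVCAR8. PVRL4, the file's name for the nectin-4 gene, was at 36.9 CPM in HCC1954 alone.

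**Figure D5:**
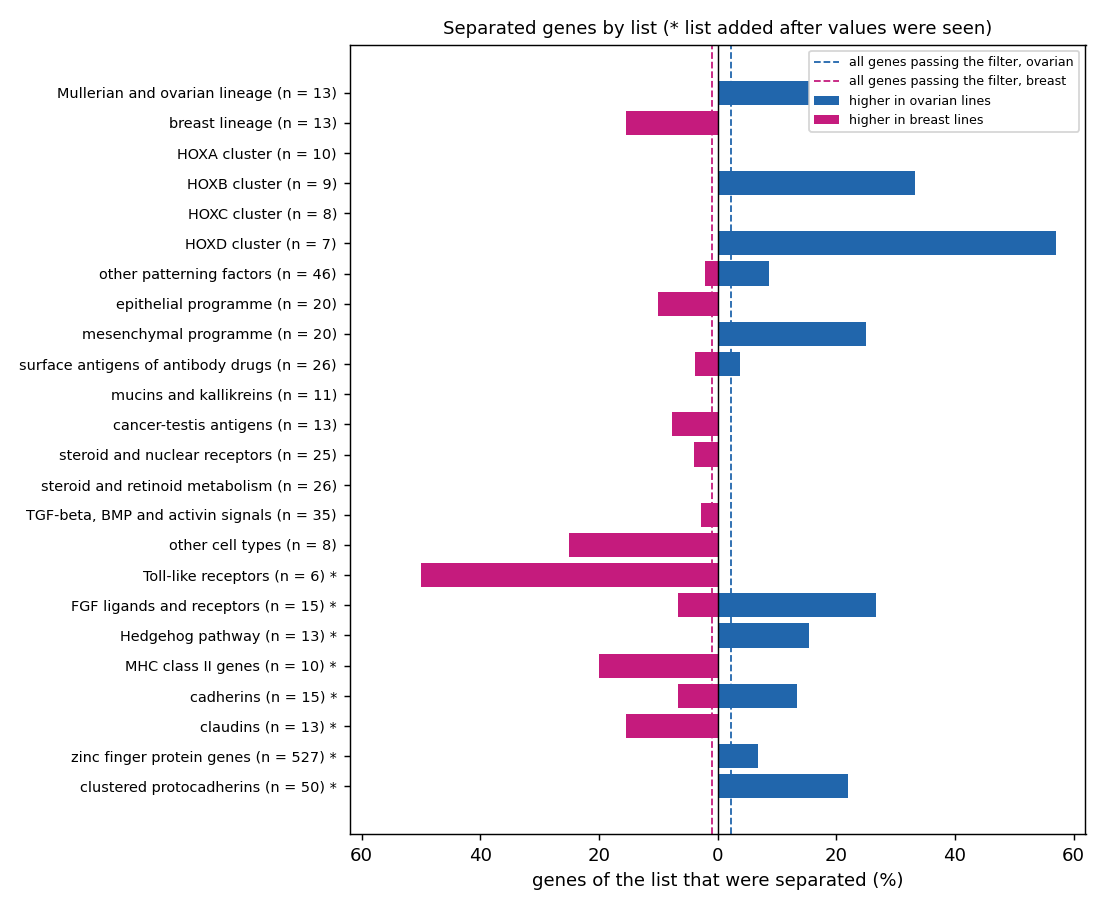
Share of each gene list that was separated, to the right where higher in ovarian and to the left where higher in breast lines; n is the number of genes that passed the filter and dashed lines mark the shares of all genes. The HOXD cluster reaches furthest to the right and Toll-like receptors furthest to the left, both among fewer than 10 genes.

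In the remaining lists few genes were separated. CT83 was the separated one of 13 cancer-testis antigen genes (7.69%, against 0.995% of all genes). PRAME was at 215 CPM in OVCAR8, 24.4 CPM in HCC1954 and 22.7 CPM in SKOV3. None of 26 genes of steroid and retinoid metabolism and none of 11 mucins and kallikreins was separated. Without MDA-MB-231, 13 and 9 were higher in breast lines (1751 over all genes). In these 2 lists HCC1954 held the highest level of several genes, such as KLK5 (722 CPM, with no count in the other 3 lines) and ALDH1A3 (1281 CPM against 74.1 CPM in OVCAR8). MGMT, a DNA repair gene, and SLFN11, a replication-stress gene, were named after their values were seen. MGMT was at 23.3 CPM in OVCAR8, 18.4 CPM in SKOV3, 3.36 CPM in HCC1954 and without a count in MDA-MB-231. SLFN11 was at 30.0 and 115 CPM in the ovarian lines against 0.0481 and 0.521 CPM in the breast lines, a 372-fold ratio.

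The tissue difference was next compared between the constructs. With the line as a term, the quasi-likelihood test of edgeR found 0 of 19204 genes whose tissue difference depended on the construct at an FDR under 0.05, and 525 with an unadjusted p under 0.05, where 960.2 would be expected by chance. limma-voom found 0. With every gene of at least 1 count kept, edgeR called 79. Among the 629 separated genes 41 had an unadjusted p under 0.05 and 0 an FDR under 0.05. The smallest FDR was 0.0981, for INHBE, an inhibin subunit gene that was not separated. With 1 library for each construct in a line, small effects of a construct on these genes were not detectable.

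At the limit of the gap, ZFP82 (1.01) and PCDH17 (1.02) were just inside and SORBS3 (0.996) and PCDHB9 (0.993) just outside the ovarian-high set. In the breast-high set MUT (1.02) and IFIT3 (1.03) were just inside and ACTA2 (0.994) and DUS4L (0.992) just outside.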

How the data were processed

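Poly(A) RNA of 12 libraries was sequenced with a stranded kit. The authors aligned reads to GRCh38 with STAR 2.5.3a and deposited raw counts per gene (57187 genes), with a second table of TMM-adjusted CPM values (a normalized signal) made in edgeR. The strand setting of the counting is not given in the sources used here.

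From the deposited counts, log2 CPM was computed with TMM factors and a prior count of 2 for 19204 genes that passed filterByExpr by line. The counts of each line were summed, and 2 breast and 2 ovarian totals were tested with edgeR 4.0.16 (quasi-likelihood, Benjamini-Hochberg FDR). Alternatives used DESeq2 and limma. The fits were tested on simulated data. Genes named are PAX8, GATA3, SIVA1, the 15 protein-coding genes with the widest gap in each direction, separated list members with up to 4 others of a list, the genes nearest the limit, and others said to be chosen later. Positions and promoters are from RefSeq on GRCh38.p14 (88.8% of the filtered genes matched by symbol). The members, lists and rules were chosen with earlier results of these data known. A few members of the lists are counted in them but not reported here by name. P-values of tests on line totals measure the spread between lines, 2 a tissue. Those of the construct test, with the line as a term, measure the spread left within lines. limma-voom took the 12 libraries with the line as a block.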

Additional observations from a re-analysis of the deposited data

Results flagged for a closer look

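Sets of 6 libraries, 1 gene and 1 tissue each, were put to a Dixon gap test. In 5 of 229 sets a library stood away from the other 5. For 6 independent libraries chance would give about 11.45. The 6 libraries came from 2 lines, so that this number is no measure of chance here. The OVCAR8 EV library had 14.2 CPM of TRHDE, against 48.4 to 67.1 CPM in the other ovarian libraries, and it stayed far above the breast libraries. The SKOV3 EV library had 0.581 CPM of BMP4, against 1.5 to 2.04 CPM. The SKOV3 SIVA-WT library had 0.224 CPM of AREG, the amphiregulin gene, against 0.589 to 0.978 CPM. MUT, the methylmalonyl-CoA mutase gene, was at 52.2 CPM in the HCC1954 SIVA-D160N library, against 63.3 to 70.7 CPM, and at 22.4 CPM in the OVCAR8 EV library, against 24.6 to 25.7 CPM. Their causes were not tested.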

How the results depend on the processing

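The number of genes called for the tissue difference changed with the test and with what was taken as a replicate. DESeq2 on the line totals called 367 genes higher in ovarian and 206 higher in breast lines, of which 299 and 125 were also separated. limma-voom with the line as a block, at a correlation of 0.918 between libraries of a line, called 16 and 2, all separated. Taking the 12 libraries as separate samples called 981 and 772, which counts each line 3 times. The other alternatives (RLE factors, no filter, 1 construct at a time, each line left out, FDR alone) called 0. The separated genes numbered 1398 higher in ovarian and 1168 higher in breast lines with any gap above 0, 237 and 76 with a gap of at least 2, and 799 and 471 in the EV libraries alone. Leaving out each line in turn, which leaves fewer libraries to overlap, gave 1160 to 1552 and 746 to 1751, and without MDA-MB-231 more genes were separated on the breast side (1751) than on the ovarian side (1321). Under other priors, factors, filters or the CPM values deposited by the authors, and without the HCC1954 EV library (chosen after seeing the data, for its 0 counts of SIVA1), they stayed within 388 to 473 and 176 to 209. The test of construct dependence called 79 genes without a filter. With 1 line left out the GATA3 log2 fold change ran from -11.37 (without OVCAR8) to 0.45 (without HCC1954), and SIVA1 turned to -2.21 under limma-voom. These 2 genes were not separated. Of 129 genes, these 2 and the separated genes named, no other changed sign. The separated genes were chosen with every library of 1 tissue above every library of the other. Their unchanged sign follows from that choice and is no measure of how firm they are. In the EV, SIVA-WT and SIVA-D160N libraries alone, 125, 127 and 123 genes could be fitted. Of 62 other named genes that were not separated, 41 changed sign without 1 line. Some of the 62, such as FOXA1 and SORBS3, did not overlap between the tissues but had a gap under 1. No paired analysis was possible because the labels give no replicate numbers to match, and the constructs, which every line carries, were instead taken 1 at a time. With 2 lines a tissue, a tissue difference cannot be told apart from that of the lines.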

Other observations

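Further genes, named after their values were seen, were separated outside the lists. Genes of the extracellular matrix and its enzymes lay on both sides. On the ovarian side, the collagenase gene MMP1 ran from 214 to 1488 CPM, against 0.184 to 4.11 CPM in breast libraries, a 638-fold ratio. VCAN, the gene of the proteoglycan versican, was at 429 CPM in SKOV3 and 27.8 CPM in OVCAR8, against 0.593 and 0.0827 CPM in MDA-MB-231 and HCC1954. The basement membrane gene NID2 was at 359 and 10.4 CPM in SKOV3 and OVCAR8, with at most 3 counts in a breast library. On the breast side, PXDN, which encodes a peroxidase that cross-links collagen IV, was 105-fold higher in breast lines, with 195 and 247 CPM in the line totals. ITGA2, a collagen-receptor integrin gene, ran from 65.9 to 290.4 CPM in breast and from 1.63 to 30.1 CPM in ovarian libraries.

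Other breast-high genes were KRT19, CDKN1A, NAMPT and AHR. KRT19, a keratin gene of simple epithelia, was at 80.1 CPM in MDA-MB-231 and 22.2 CPM in HCC1954, and at 0.967 and 0.00888 CPM in SKOV3 and OVCAR8. CDKN1A, the p21 cell-cycle inhibitor gene, ran from 50.97 to 156 CPM in breast and from 4.54 to 16.3 CPM in ovarian libraries, a 6.6-fold ratio. NAMPT, which encodes an enzyme of NAD synthesis, was 9.21-fold higher in breast lines, and AHR, the aryl hydrocarbon receptor gene, 6.86-fold. The genes of 2 ERBB receptor ligands were picked singly. AREG, the amphiregulin gene, ran from 2.34 to 42 CPM in breast and from 0.224 to 0.978 CPM in ovarian libraries. NRG1, the neuregulin gene, was at 90.6 and 85.5 CPM in OVCAR8 and SKOV3, at 19.2 CPM in MDA-MB-231 and at 0.0165 CPM in HCC1954.

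By chromosome, over genes that passed the filter, the ovarian-high share ran from 0.808% on chromosome 16 to 4.44% on chromosome 21, and the breast-high share from 0% on chromosome 21 to 2.72% on chromosome 6, where 24 of 883 genes were separated. Over all genes the shares were 2.28% and 0.995%. On chromosome 5, which holds the 11 separated clustered protocadherins, 33 of 817 genes (4.04%) were ovarian-high and 8 (0.979%) breast-high. On chromosome 19 the counts were 49 (4.05%) and 10 (0.827%) of 1209, and on chromosome 8 they were 23 (3.89%) and 1 (0.169%) of 591.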
